A study of Bos taurus with 11 samples.

Results

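The messages for the cytosolic large-subunit ribosomal proteins, RPL3 to RPL41 with RPLP0, RPLP1 and RPLP2, were followed in blood cells of cattle from high and low altitude. The set was taken from the gene names printed on a bovine oligonucleotide array, and every probe of a member was used rather than the brightest alone. Of 45 genes sought, 44 had a probe and RPL41 had none. They held 172 probes of the array's 43653, with 1 to 8 probes a gene and each probe a different 60-base sequence. Peripheral blood mononuclear cells (PBMCs, the lymphocytes and monocytes of the blood) came from 5 female Ladakhi cattle, native to high altitude, and from 6 female Sahiwal cattle of a low-altitude dry region, whose samples are labelled basal. Each animal gave 1 array, labelled with Cy3 alone.

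Each cytosolic ribosome joins a small subunit, which reads the message, to a large subunit, which forms the peptide bond and guides the new chain out through a tunnel. Large-subunit messages are among the most abundant of most cells, and the proteins are needed in equal numbers, except for the repeated stalk proteins RPLP1 and RPLP2. Their messages begin with a run of pyrimidines through which growth signalling by mTOR sets how fast they are translated. In humans and mice, RPL5 and RPL11 left over from ribosome assembly bind MDM2 and so tie ribosome supply to p53.

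The probe sequences matter here because different probes of 1 gene gave different answers, so those that carry this are shown first, 5′ to 3′ as on the array, from the files. All are in the sense of the message except P098936 of RPL10 and P169612 of RPL35A, which read the opposite strand. Probes are named by the end of their array identifier (A_73_P297672 as P297672), and positions are those the files give on the HGSC Btau_3.1 build. A pair in RPL6 shared 53 bases, in capitals, at chr17:65073797-65073856, plus strand and chr17:65073804-65073863, plus strand.
RPL6 P293291: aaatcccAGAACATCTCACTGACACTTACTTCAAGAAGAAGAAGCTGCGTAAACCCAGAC
RPL6 P297672: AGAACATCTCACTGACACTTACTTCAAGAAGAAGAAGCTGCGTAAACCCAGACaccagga
Another pair in RPL6 shared 49 bases, in capitals, at chr17:65072164-65072223, plus strand and chr17:65072175-65072234, plus strand.
RPL6 P322126: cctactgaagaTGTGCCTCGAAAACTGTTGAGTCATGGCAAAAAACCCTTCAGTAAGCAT
RPL6 P447401: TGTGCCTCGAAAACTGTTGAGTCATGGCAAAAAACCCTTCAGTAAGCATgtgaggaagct
An RPL5 pair shared 43 bases, in capitals, and each probe crossed an intron, at chr3:53996796-53997316, minus strand and chr3:53996813-53997333, minus strand.
RPL5 P378456: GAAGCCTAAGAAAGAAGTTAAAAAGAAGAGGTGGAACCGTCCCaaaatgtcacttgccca
RPL5 P439356: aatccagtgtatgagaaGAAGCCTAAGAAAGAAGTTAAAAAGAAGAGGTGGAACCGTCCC
An RPL12 pair shared 57 bases apart from 3 substitutions, in capitals, at chr11:101676298-101676357, minus strand and chr11:101676301-101676935, minus strand. Counted from base 1 of P083831, these were C18T, T46C and A56G.
RPL12 P083831: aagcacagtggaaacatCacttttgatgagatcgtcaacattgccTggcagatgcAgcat
RPL12 P099781: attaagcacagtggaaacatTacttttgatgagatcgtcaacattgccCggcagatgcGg
Judged to lie at the end of the RPL6 coding sequence, P495203 (chr17:65074448-65074507, plus strand) shared 42 bases with the probe A_73_103317 (chr17:65074430-65074489, plus strand) apart from 1 substitution, in capitals. Only these shared bases are shown.
RPL6 P495203: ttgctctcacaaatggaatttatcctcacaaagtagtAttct
RPL6 A_73_103317: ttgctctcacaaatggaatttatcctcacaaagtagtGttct

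Other probes that passed the test between the breeds are shown next. They were judged, without a check against proteins, to lie in the coding sequence of RPL8 (chr14:92896-92955, minus strand), RPL34 (chr6:18084330-18084389, minus strand), RPL17 (chr24:50819592-50819651, minus strand, and chr24:50821171-50821230, minus strand) and RPLP2 (minus strand of an unplaced contig).
RPL8 P165972: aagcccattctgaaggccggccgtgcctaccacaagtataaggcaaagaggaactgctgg
RPL34 P087261: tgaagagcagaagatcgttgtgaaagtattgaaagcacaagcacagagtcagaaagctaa
RPL17 P082436: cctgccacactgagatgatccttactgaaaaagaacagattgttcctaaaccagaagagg
RPL17 P513349: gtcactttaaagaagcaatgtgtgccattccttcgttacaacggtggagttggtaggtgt
RPLP2 P203772: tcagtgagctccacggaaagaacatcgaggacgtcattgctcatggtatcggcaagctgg
Among RPL10 probes, P099911 read the message (chrX:23718039-23718098, plus strand) and P098936 the opposite strand (chrX:23718027-23718087, minus strand), with 49 bases, in capitals, that are complementary between them.
RPL10 P099911: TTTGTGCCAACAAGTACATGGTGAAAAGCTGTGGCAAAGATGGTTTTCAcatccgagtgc
RPL10 P098936: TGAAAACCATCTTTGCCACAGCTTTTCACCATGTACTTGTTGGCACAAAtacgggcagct
In RPL35A, P169612 (chr1:71383342-71383622, plus strand) ran against the direction of the gene's other probes on that chromosome, and its first 30 bases are shown.
RPL35A P169612: tatagccagcaaaaatggccttggaccaca

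Levels are log2 processed signals less the 75th percentile of the same array, taken over 2578 probes well above background on all 11 arrays, and differences are Ladakhi minus Sahiwal on the log2 scale. The Ladakhi arrays were dimmer, with 4243 to 6608 of 43803 spots well above background, against 17517 to 20574 on the Sahiwal arrays. Probes with repeat spots on an array and no saturation varied between those spots by a median SD of 0.34 to 1.12 on the Ladakhi arrays (2 to 5 probes an array), against 0.10 to 0.33 on the Sahiwal arrays (23 to 32 probes an array). An Agilent scanner was used for Ladakhi slides, an Axon scanner for Sahiwal slides, and the versions of the extraction software differed, so breed, slide and platform cannot be told apart in any difference below. The leukocyte genes PTPRC, CD52 and CORO1A were detected in both breeds. PTPRC was lower at 1 probe (-1.55), did not pass the test at another (-0.12) and was higher at the last (2.90). At the last, its Sahiwal mean (-4.74) lay below the lowest level detected on average in Ladakhi (-3.51). That probe could be detected in both breeds only if higher in Ladakhi. In bulk RNA, fewer cells of a type and less RNA per cell cannot be told apart either.

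A probe counted as measured where 4 or more arrays of each breed had it well above background. Of the 172 probes, 57 in 27 genes were measured and saturated on no array. Another 75 probes, in 37 genes, were measured but saturated on at least 1 Sahiwal array, so that a lower Ladakhi level there is a minimum difference and a higher one an upper limit. A further 17 lay above background on 1 to 3 Ladakhi arrays and at least 4 Sahiwal arrays, 9 on no Ladakhi array but at least 4 Sahiwal arrays, and 13 on too few arrays of both breeds. The last, in RPL36A, lay above it on 5 Ladakhi and 3 Sahiwal arrays. The 17 and the 9 entered the test through Sahiwal alone, so that lower Ladakhi levels are what the filter selects there, and their values are given as a description. For 16 genes, RPL11, RPLP1, RPL7A and RPL32 among them, every measured probe was saturated in Sahiwal. Saturated spots occurred on no Ladakhi array.

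On the 57 unsaturated probes, 15 large-subunit probes were lower in Ladakhi cells, led by RPL6, RPL17, RPL8 and RPL34, and 4 were higher, in RPL35A, RPL10, RPL17 and RPLP2. The test (limma, Benjamini-Hochberg adjusted p under 0.05 over 17866 probes) did not call the other 38. Those called were 33.3% of the 57, against 32.5% of all 3793 probes of the same kind, so their number is close to that of the array. The directions were 26.3% lower and 7.02% higher for the members, against 14.6% lower and 18.0% higher for all. The median difference was -0.58 for the members and -0.022 for all 3793 probes, and 41 of the 57 were negative. Within each array, the median level of the 57 probes ran from -0.19 to 0.47 in the 5 Ladakhi animals, against 0.45 to 1.15 in the 6 Sahiwal animals, so that the lowest Sahiwal array lay just under the highest Ladakhi array. Over all 3793 probes these array medians lay between -1.79 and -1.71 in Ladakhi, against -1.73 to -1.52 in Sahiwal. When probes with saturated spots are counted too, 33.0% of all 4034 measured probes on the array were called. Breeds did not overlap in 12 of the 57 probes (21.1%), against 21.5% of all. With robust regression, added after single low Ladakhi arrays were seen, the members' median was -0.26, with 16 lower and 5 higher, and with normexp background correction 26 were lower and 4 higher. Calls rose over all 4034 measured probes too, where 609 were lower and 722 higher in the main fit. Robust regression called 754 of these lower and 1024 higher, with a median of 0.091, and normexp called 945 lower and 999 higher. Of the 57, 1 had a Sahiwal mean below the lowest level detected on average in Ladakhi (-3.51). Single Ladakhi values did fall below detection. RPL6 P495203 (the largest fall), RPL5 P439356 and RPL17 P097531, all called lower, were well above background on only 4 of the 5 Ladakhi arrays.

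**Figure D1:**
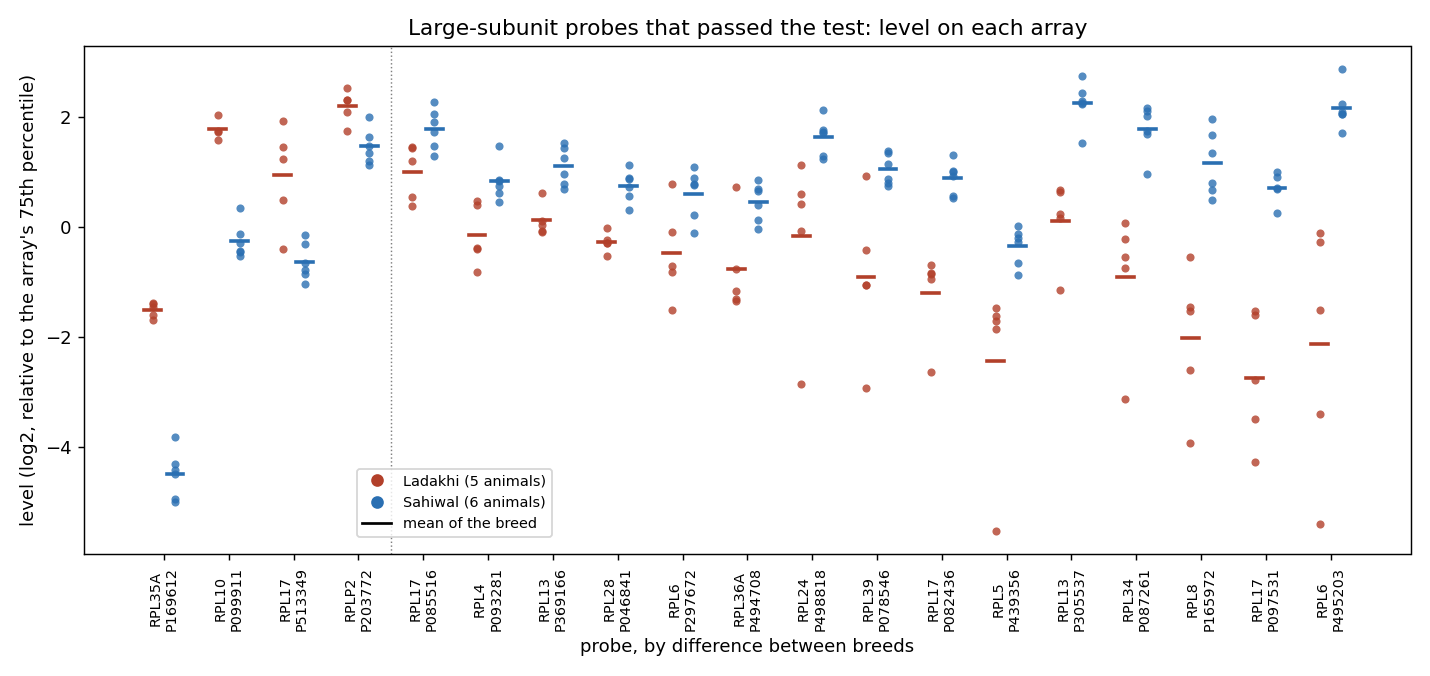
Level of the 19 unsaturated large-subunit probes that passed the test, on each array (log2, relative to the array's 75th percentile), with probes ordered by difference along the horizontal axis, Ladakhi animals left and Sahiwal animals right in each pair, and bars at the breed means. The 4 probes left of the dotted line were higher in Ladakhi and the 15 right of it lower, often with 1 Ladakhi array far below the other 4.

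The stalk is the flexible arm that recruits elongation factors. It is built of RPLP0, which binds the subunit, and of RPLP1 and RPLP2, which bind RPLP0. RPLP2 was the stalk gene that rose on an unsaturated probe. At P203772 its level was 2.31, 1.74, 2.09, 2.30 and 2.53 in the 5 Ladakhi animals, against a lowest, median and highest of 1.13, 1.41 and 2.01 in the 6 Sahiwal animals. The ranges overlapped at their edges, and the difference was 0.73 ± 0.26 (SE), a 1.66-fold higher level (adjusted p = 0.0378). That call was lost in 7 of the 11 fits that left out 1 array, with adjusted p up to 0.0763 (without Ladakhi arrays 1, 4 or 5 or Sahiwal arrays 1, 4, 5 or 6), with scaling over all probes (adjusted p = 0.0653), with the authors' deposited values (0.0651) and with the replicate block (0.129). Normexp background correction gave a difference of 0.31 (adjusted p = 0.201). The other 3 measured probes of RPLP2 were saturated on all 6 Sahiwal arrays, and their differences of 0.62, 1.48 and 2.0 are upper limits. For a probe of RPLP2 on the opposite strand, no Ladakhi array was above background.

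RPLP0 gave no call on its measured unsaturated probes in the test used throughout. Its probe P099881 had levels of -0.88, 1.88, -0.19, 0.82 and 1.12 in Ladakhi animals, against 1.21, 1.54 and 2.14 (lowest, median, highest) in Sahiwal animals. The Ladakhi values were widely spread, 4 of them below every Sahiwal value, and the difference was -1.04 ± 0.43 (adjusted p = 0.0639). P099881 did pass under 6 alternatives (normexp, no filter, dim signals raised, slide as a random block, array weights and robust regression), with adjusted p of 0.0109 to 0.0335. It also passed in 1 of the fits that left out 1 array (adjusted p = 0.0169). The dim probe P099636 had -2.11, -2.62, -3.56, -1.52 and -1.45 in Ladakhi animals and -2.23, -1.99 and -1.25 in Sahiwal animals, a difference of -0.38 ± 0.38 (adjusted p = 0.442). A saturated probe of RPLP0 gave -0.078. On 2 probes of RPLP0 that lay above background on only 3 Ladakhi arrays, the differences were -3.48 and -2.91 after dim signals were raised to each array's detection limit.

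RPLP1 could be read only on probes saturated in Sahiwal. At P492953, saturated on 1 Sahiwal array, its mean level was -1.5 ± 0.66 in Ladakhi and 1.77 ± 0.38 in Sahiwal (SD, n = 5 and 6), at least 9.63-fold lower (adjusted p = 2.53e-05). At P462036, saturated on all Sahiwal arrays, it was 3.70 ± 0.60 in Ladakhi and 2.67 ± 0.49 in Sahiwal, at most 2.05-fold higher, an upper limit that a lower level would also meet. Those probes shared 37 bases apart from 2 substitutions. The remaining probe, P033516, gave -0.80 (adjusted p = 0.338).

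RPL12 sits at the base of the stalk. At P083831 its levels were 1.61, 1.17, 0.85, 1.73 and 1.60 in Ladakhi animals, against 0.29, 1.0 and 1.25 in Sahiwal animals, a difference of 0.47 ± 0.27 (adjusted p = 0.179). At P099781, which differs from it at 3 of 57 shared bases, they were -5.52, 2.44, 2.04, -0.51 and 2.16 in Ladakhi animals, against 1.09, 1.57 and 1.80 in Sahiwal animals. Here 3 Ladakhi animals lay above every Sahiwal animal, while Ladakhi animals 1 and 4 lay below all of them, and the difference was -1.42 ± 1.1 (adjusted p = 0.313). The spot of animal 1 was not above background and holds a surrogate value set by the software, not a measured level. The remaining unsaturated probe, P059161, had 0.59, 1.07, -3.28, 1.47 and 1.5 in Ladakhi animals and -0.28, 0.74 and 1.03 in Sahiwal animals, with Ladakhi animal 3 far below the rest and a difference of -0.34 ± 0.70 (adjusted p = 0.717). Without that animal it was 0.54, and without animal 1 the difference at P099781 was -0.015.

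RPL5 and RPL11 carry the 5S ribosomal RNA into the subunit. For RPL5, overlapping probes gave different results. At P439356 its levels were -5.52, -1.61, -1.71, -1.84 and -1.47 in Ladakhi animals, against -0.86, -0.23 and 0.028 in Sahiwal animals. Every Ladakhi value lay below every Sahiwal value, animal 1 by far, and the level was 4.24-fold lower (-2.09 ± 0.61, adjusted p = 0.0137). The spot of animal 1 was not above background and holds a surrogate value, so its depth was not measured. With Ladakhi animal 1 left out, the difference was -1.31 (adjusted p = 0.00389), and with quantile normalization the call was lost (-2.59, adjusted p = 0.0708). At P378456, with 43 bases in common, the levels were 1.97, 1.32, 1.84, 2.38 and 2.27 in Ladakhi animals, against 1.32, 1.89 and 2.26 in Sahiwal animals. These ranges overlapped almost fully, with a difference of 0.15 ± 0.29 (adjusted p = 0.707). Another 2 probes of RPL5, saturated in Sahiwal, gave upper limits of 0.74 and 0.86. RPL11 had 1 measured probe, saturated on 3 Sahiwal arrays, with mean levels of 2.60 ± 2.24 in Ladakhi and 2.68 ± 0.43 in Sahiwal and no call (adjusted p = 0.944).

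The peptidyl transferase centre, where the peptide bond forms, is RNA, and RPL3, RPL8 and RPL10 reach close to it. RPL3 had 0.33, -1.45, 0.66, 1.29 and 0.66 at P300931 in Ladakhi animals, against 0.58, 1.01 and 1.99 in Sahiwal animals, a difference of -0.77 ± 0.44 (adjusted p = 0.166). At the dimmer P449236 it had -1.89, -1.53, -1.64, -1.01 and -1.64 in Ladakhi animals, against -2.07, -1.87 and -0.87 in Sahiwal animals, a difference of 0.19 ± 0.29 (adjusted p = 0.61). Both pairs of ranges overlapped. Saturated probes of RPL3 were lower by at least 2.48-fold at P097521 and 3.02-fold at A_73_119272 (adjusted p = 0.00268 and 0.0257).

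RPL8 fell at its only unsaturated probe. Its levels at P165972 were -0.54, -2.59, -3.92, -1.46 and -1.52 in Ladakhi animals, against 0.49, 1.07 and 1.96 in Sahiwal animals. No values overlapped, and the level was 8.95-fold lower (-3.16 ± 0.51, adjusted p = 0.000505). The saturated probes of RPL8, P045156 and P362981, gave upper limits of 1.17 and 1.23, which set no direction.

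RPL10, which joins the subunit last and readies it for translation, was higher at P099911. There its levels were 1.74, 2.04, 1.72 and 1.58 in 4 Ladakhi animals (animal 2 had an outlier mark and was left out), against -0.52, -0.36 and 0.35 in Sahiwal animals. All Ladakhi values lay above all Sahiwal values, by 4.05-fold (2.02 ± 0.28, adjusted p = 0.000247). The remaining unsaturated RPL10 probes, which share 58 bases apart from 3 substitutions with each other, pointed the other way without a call. P511073 had 1.44, 1.13, 0.94, 0.94 and -1.16 in Ladakhi animals and 1.07, 1.71 and 2.02 in Sahiwal animals (-1.01 ± 0.42, adjusted p = 0.0633). P490878 had 1.86, 1.95, -3.58, 1.56 and -0.071 in Ladakhi animals and 0.85, 1.29 and 2.07 in Sahiwal animals (-0.99 ± 0.79, adjusted p = 0.331), with Ladakhi animal 3 far below the rest. Without Ladakhi animal 3 the difference at P490878 was -0.0092, and without animal 5 that of P511073 was -0.56.

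RPL4 and RPL17 line the exit tunnel, and RPL39 lies near its end. RPL4 fell at P093281, with -0.81, -0.37, -0.40, 0.40 and 0.48 in Ladakhi animals, against 0.46, 0.79 and 1.47 in Sahiwal animals. The ranges met at their edges, and the level was 1.96-fold lower (-0.97 ± 0.31, adjusted p = 0.0211, or 0.0582 without Ladakhi animal 1). At P210592 it had -0.67, -0.057, 0.82, 1.46 and 1.5 in Ladakhi animals, against 1.0, 1.44 and 1.97 in Sahiwal animals, with a like difference that did not pass (-0.84 ± 0.39, adjusted p = 0.101). A saturated probe, P035306, was at least 4.22-fold lower (adjusted p = 0.00236), while another, P502334, gave -0.29 without a call (adjusted p = 0.435). Among the 9 probes on no Ladakhi array, RPL4 gave the only bound below 0, at P329836. There the mean Ladakhi detection limit of -3.51 lay 1.24-fold below the Sahiwal mean of -3.20 ± 0.55 (SD, n = 6). The limits of Ladakhi array 2 (-2.94) and, barely, array 1 (-3.199) lay above that mean (-3.201), so a minimum fall does not hold for every array. The other 8 of those probes had Sahiwal means below the Ladakhi detection limit, so no difference can be read from them.

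RPL17 had 5 unsaturated probes, and it alone among the members had calls in both directions on such probes. At P097531, which the files place on chromosome 19, its levels were -1.60, -1.53, -4.27, -2.78 and -3.48 in Ladakhi animals, against 0.26, 0.71 and 1.0 in 5 Sahiwal animals (1 spot had an outlier mark). All were below the Sahiwal values, that of Ladakhi animal 3 at a spot not well above background, and the level was 10.9-fold lower (-3.44 ± 0.48, adjusted p = 0.000263). At P082436 on chromosome 24 it had -0.85, -2.64, -0.84, -0.69 and -0.94 in Ladakhi animals, against 0.53, 0.96 and 1.31 in Sahiwal animals. Again no values overlapped, with a 4.24-fold lower level (-2.08 ± 0.35, adjusted p = 0.000665). At P085516, placed on chromosome 7, it had 1.19, 0.38, 0.55, 1.45 and 1.44 in Ladakhi animals, against 1.30, 1.82 and 2.27 in Sahiwal animals (-0.79 ± 0.30, adjusted p = 0.0475). The ranges overlapped there, and the call was lost in 7 of the 11 fits without 1 array (Ladakhi 1, 2 or 3 or Sahiwal 1, 2, 3 or 6) and with scaling over all probes (adjusted p = 0.0588). RPL17 was higher at P513349 on chromosome 24, with 1.24, 1.46, 0.49, -0.41 and 1.92 in Ladakhi animals, against -1.03, -0.71 and -0.15 in Sahiwal animals. Only Ladakhi animal 4 lay within the Sahiwal range, and the level was 2.97-fold higher (1.57 ± 0.38, adjusted p = 0.00542). P486083 had 0.94, 1.09, 0.94, -0.037 and -1.26 in Ladakhi animals and -0.059, 0.40 and 0.77 in Sahiwal animals, a difference of -0.034 ± 0.40 (adjusted p = 0.953). Ribosomal protein genes have many processed copies in mammalian genomes, so probes placed on other chromosomes may read a copy, and near-identical copies cannot be told apart here.

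RPL39 fell at P078546 (mean -0.90 ± 1.38 in Ladakhi and 1.05 ± 0.28 in Sahiwal, SD, n = 5 and 6), by 3.87-fold (adjusted p = 0.00714), and gave -0.70 without a call at its dimmer probe. Around the tunnel exit, where targeting factors dock on RPL23A and RPL35, 3 unsaturated RPL35 probes gave -0.82, -0.57 and -0.52, none past the threshold. The measured RPL23A probes were saturated in Sahiwal and had upper limits of 0.35 to 0.93. RPL24, which bridges the subunits, was 3.47-fold lower at P498818 (-1.79 ± 0.56, adjusted p = 0.0194) and gave -0.53 at P036780 (adjusted p = 0.409).

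RPL6 showed the largest fall among the 57 probes, and its overlapping unsaturated probes differed. At P495203 its levels were -0.26, -0.11, -1.51, -5.39 and -3.38 in Ladakhi animals, against 1.70, 2.07 and 2.87 in Sahiwal animals. Every Ladakhi value lay below every Sahiwal value, with animals 4 and 5 far below the other 3, and the level was 19.7-fold lower (-4.30 ± 0.76, adjusted p = 0.000824). The spot of animal 4 was not well above background, so the size of the fall rests in part on an undetected level. The probe that shares 42 bases with P495203, saturated on all Sahiwal arrays, gave an upper limit of 0.5 (adjusted p = 0.203), which does not conflict with a fall.

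Within the first RPL6 pair, P297672 had -0.71, -1.51, -0.82, -0.081 and 0.79 in Ladakhi animals, against -0.10, 0.77 and 1.09 in Sahiwal animals (-1.07 ± 0.39, adjusted p = 0.0377). Its partner P293291 had 0.98, 1.19, 0.74, 0.73 and 1.43 in Ladakhi animals, against 0.52, 0.91 and 1.35 in Sahiwal animals (0.14 ± 0.26, adjusted p = 0.685). P297672 was thus 2.1-fold lower, although the call at P297672 was lost in 7 of the 11 fits without 1 array (Ladakhi 1, 2 or 3 or Sahiwal 1, 2, 3 or 5). In the other pair, P447401 had -1.94, -2.18, -1.98, -0.53 and -0.32 in Ladakhi animals, against -1.22, -0.46 and -0.13 in Sahiwal animals (-0.86 ± 0.39, adjusted p = 0.0878). P322126 had -0.34, -0.59, -0.39, -0.071 and 0.19 in Ladakhi animals, against -1.06, -0.40 and -0.26 in Sahiwal animals (0.32 ± 0.27, adjusted p = 0.361).

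The other large falls were in structural proteins of the subunit. RPL34 had 0.077, -0.21, -0.53, -0.73 and -3.12 at P087261 in Ladakhi animals, against 0.96, 1.88 and 2.16 in Sahiwal animals, and was 6.41-fold lower (-2.68 ± 0.49, adjusted p = 0.000978). RPL13 had -1.14, 0.68, 0.17, 0.63 and 0.25 at P305537 in Ladakhi animals, against 1.53, 2.28 and 2.74 in Sahiwal animals, and was 4.39-fold lower (-2.13 ± 0.35, adjusted p = 0.000556). Neither gene's values overlapped between the breeds at these probes. RPL13 was also lower at P369166 (-0.99, adjusted p = 0.00972), but gave -0.25 at P128616 (adjusted p = 0.487) and an upper limit of 0.77 at a saturated probe. RPL28 was 2.03-fold lower (-1.02 ± 0.25, adjusted p = 0.00522), without overlap, and RPL36A was 2.32-fold lower (-1.21 ± 0.37, adjusted p = 0.0185).

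RPL35A, a gene mutated in Diamond-Blackfan anaemia in humans, gave the largest rise, at the probe on the opposite strand. P169612 had -1.59, -1.39, -1.68, -1.38 and -1.44 in Ladakhi animals, against -4.99, -4.45 and -3.80 in Sahiwal animals. No values overlapped, and the level was 7.95-fold higher (2.99 ± 0.27, adjusted p = 9.88e-06). Its Sahiwal mean lay below the Ladakhi detection limit, so it could be measured only if higher in Ladakhi. On the message strand, RPL35A probes were saturated or dim. P074361 was at least 6.15-fold lower (adjusted p = 0.00563), P062336 and P093121 had upper limits of 0.90 and 1.03, and P041641, on 3 Ladakhi arrays, gave -2.77 with dim signals raised. In all, 9 member probes read the opposite strand by their coordinates. Of these 7 lay above background on no Ladakhi array, 1 on 3 and 1 on all 5, while 6 lay above it on at least 4 Sahiwal arrays.

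RPL13A, which in human monocytes leaves the ribosome after interferon-gamma and represses inflammatory messages, gave no call on its unsaturated probe. P299481 had 0.68, 2.40, 1.84, 2.72 and -1.53 in Ladakhi animals, against -0.029, 0.60 and 1.18 in Sahiwal animals (0.62 ± 0.61, adjusted p = 0.431). Here 3 Ladakhi animals lay above every Sahiwal value and animal 5 below them all, and leaving out animal 5 gave a difference of 1.31 (adjusted p = 0.0189). A saturated probe of RPL13A, P049706, had means of -1.19 ± 1.40 in Ladakhi and 2.46 ± 0.45 in Sahiwal, at least 12.5-fold lower (adjusted p = 0.000249).

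RPL9, near the base of the stalk, gave no call at its unsaturated probes. P087476 had 0.63, 2.26, 2.07, 2.91 and 1.53 in Ladakhi animals and 1.59, 2.10 and 2.87 in Sahiwal animals (-0.25 ± 0.38, adjusted p = 0.628). P102436 had 2.21, 2.20, 2.06, 2.77 and 2.58 in Ladakhi animals and 1.63, 2.10 and 2.62 in 5 Sahiwal animals (0.24 ± 0.29, adjusted p = 0.532). The opposite signs of that pair are thus both within the spread. RPL15 had 5 measured unsaturated probes and no call on them, with differences from -1.04 to 0.10.

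For RPL15, P508360 had -2.39, -3.47, -1.82, -2.0 and -2.08 in Ladakhi animals and -1.97, -1.49 and -0.91 in Sahiwal animals (adjusted p = 0.0542). P094891 had -5.52, -2.25, -2.95, -1.60 and -1.52 in Ladakhi animals and -2.34, -1.74 and -1.09 in Sahiwal animals, with Ladakhi animal 1 lowest. At A_73_108121 the values were -0.26, -0.51, -4.91, -0.78 and -0.76 in Ladakhi animals and -1.26, -0.56 and -0.038 in Sahiwal animals, with Ladakhi animal 3 far below the rest. The spots of Ladakhi animal 2 at P508360, animal 1 at P094891 and animal 3 at A_73_108121 were not well above background. The brighter P203267 and P466878 had overlapping ranges. Levels were 0.58, 0.94, 0.10, 1.07 and 1.08 in Ladakhi animals and -0.002, 0.67 and 1.1 in Sahiwal animals for P203267. At P466878 the Ladakhi animals reached beyond the Sahiwal range on both sides. For P466878 they were 1.94, 0.16, 1.25, 1.38 and -0.27 in Ladakhi animals and 0.33, 1.11 and 1.39 in Sahiwal animals.

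**Figure D2:**
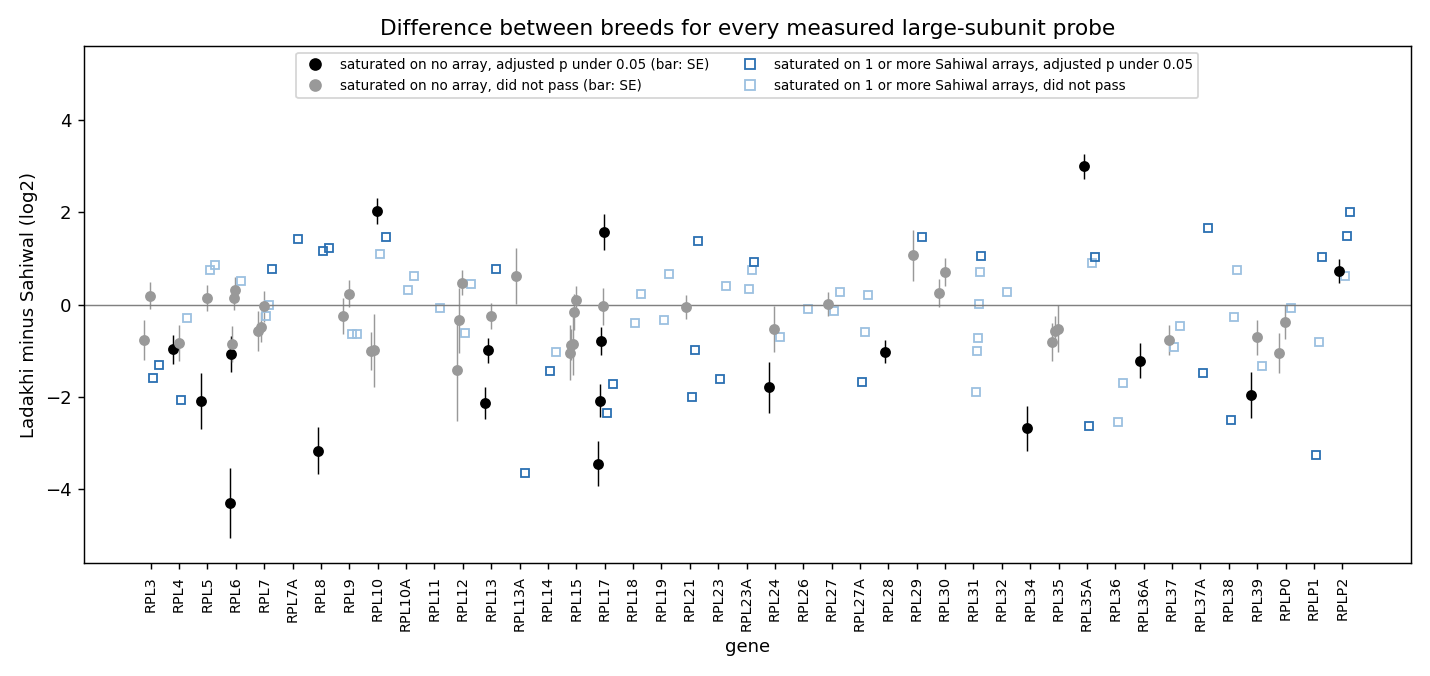
Ladakhi minus Sahiwal difference (log2, vertical axis) of all 132 measured probes in 43 large-subunit genes. Circles are the 57 probes saturated on no array, with the SE, and squares the 75 probes saturated on at least 1 Sahiwal array, where a positive value is an upper limit and a negative one a minimum, and the filled or darker marks passed the test. Circles lie mostly below 0, from -4.30 to 2.99, and several genes have marks on both sides of it.

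The 75 saturated probes were called 30 times, or 40.0%, against 40.2% of all 241 such probes on the array, of which 23.2% were lower and 17.0% higher. The members' 15 lower calls are minimum differences. Their 15 higher calls rest on capped Sahiwal values and cannot be read as higher. The median difference of these 75 probes was -0.078, against -0.28 for all 241. The poly(A) signal (AATAAA or ATTAAA, read in the sense of the message) was held by 36 of the 75 saturated probes (48.0%) and by 9 of the 57 unsaturated ones (15.8%), against 37.8% and 24.7% of all measured probes of the array of those kinds. Its reverse complement was in 2 of the 75 and 0 of the 57. Among the 9 unsaturated probes with the signal 5 were lower and 0 higher, and among the 48 without it 10 were lower and 4 higher. Over the array 16.6% of the 936 unsaturated probes with the signal were lower and 15.1% higher, against 13.9% and 18.9% of the 2857 without it.

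The 17 probes on 1 to 3 Ladakhi arrays were taken in through Sahiwal alone, so their number says nothing of the set. As measured, 11 of them were lower and 1 higher in Ladakhi, and 27.0% of all 3760 such probes on the array were lower. With dim signals raised to the detection limit 11 were lower, RPL3, RPL9, RPL10A, RPL13, RPL15, RPL22 and RPL23A among them. Raising also lifted the calls over all 17866 tested probes from 7518 to 12524. The share of the 3760 probes lower under that setting was not taken, so this count is a description only. RPL15 at P105911, on 1 Ladakhi array, gave -3.86 as measured and -2.34 raised. The 3 then higher had Sahiwal means below the Ladakhi limit, so no direction is read from them. RPL22, which is needed for development of alpha-beta T cells in mice, gave -2.25 at P072031 with raised signals.

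Probes of a gene disagreed often. Among 16 members with at least 2 unsaturated measured probes, 8 had differences of both signs, namely RPL3, RPL5, RPL6, RPL9, RPL10, RPL12, RPL15 and RPL17. For comparison, over the array this held for 233 of 579 such genes (40.2%). The gap between a member's highest and lowest probe had a median of 1.20 on the log2 scale, against 0.77 over those 579 genes. Both measures grow with the number of probes, of which these members held 2.88 each on average, against 2.32 for those genes. With exactly 2 probes, 3 of 8 members had both signs and a median gap of 0.82, against 154 of 436 genes (35.3%) and a median gap of 0.64. For RPL3, RPL9, RPL12 and RPL15 neither side of the disagreement passed the test.

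Overlapping probes have bases in common and were read on the same array. There were 12 pairs of unsaturated probes that shared at least 20 bases when aligned without gaps. P305537 and P369166 of RPL13 overlap by position but were not among them. The difference between the probes of a pair was compared between breeds. In 5 pairs the breeds differed without overlap (two-sided exact permutation test, p = 0.00433 in each, the smallest that 5 against 6 animals allow, and adjusted p = 0.0104 over the 12 pairs). Means are given with their SD over the 5 Ladakhi and 6 Sahiwal animals. For RPL6, P322126 minus P447401 was 1.15 ± 0.61 in Ladakhi animals and -0.027 ± 0.18 in Sahiwal animals. For P293291 minus P297672 it was 1.48 ± 0.82 in Ladakhi animals and 0.27 ± 0.26 in Sahiwal animals. In RPL5, P378456 minus P439356 was 4.39 ± 1.79 in Ladakhi animals (animal 1 with a surrogate value at P439356) and 2.15 ± 0.13 in Sahiwal animals. These 3 pairs have no mismatch in the shared bases.

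RPL13 and RPL17 gave the other two. In RPL13, P128616 minus P305537, with 35 shared bases, was 0.90 ± 0.73 in Ladakhi animals and -0.98 ± 0.23 in Sahiwal animals. In RPL17, P082436 minus P085516, placed on chromosomes 24 and 7 and with 21 shared bases and 1 substitution, was -2.19 ± 0.59 in Ladakhi animals and -0.90 ± 0.33 in Sahiwal animals. The other 7 pairs, in RPL7, RPL9, RPL10, RPL12, RPL15, RPL30 and RPL35, gave adjusted p of 0.303 to 0.926. Over the 12 pairs, the difference between overlapping probes varied between arrays by a median SD of 1.05 in Ladakhi (0.43 to 3.57) and 0.19 in Sahiwal (0.033 to 0.42). In RPL12, with 3 substitutions, the pair differed by 1.90 in its breed differences and did not pass (p = 0.346, exact permutation test), with an SD of 3.57 between the Ladakhi animals. That SD includes the surrogate value of animal 1 at P099781.

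**Figure D3:**
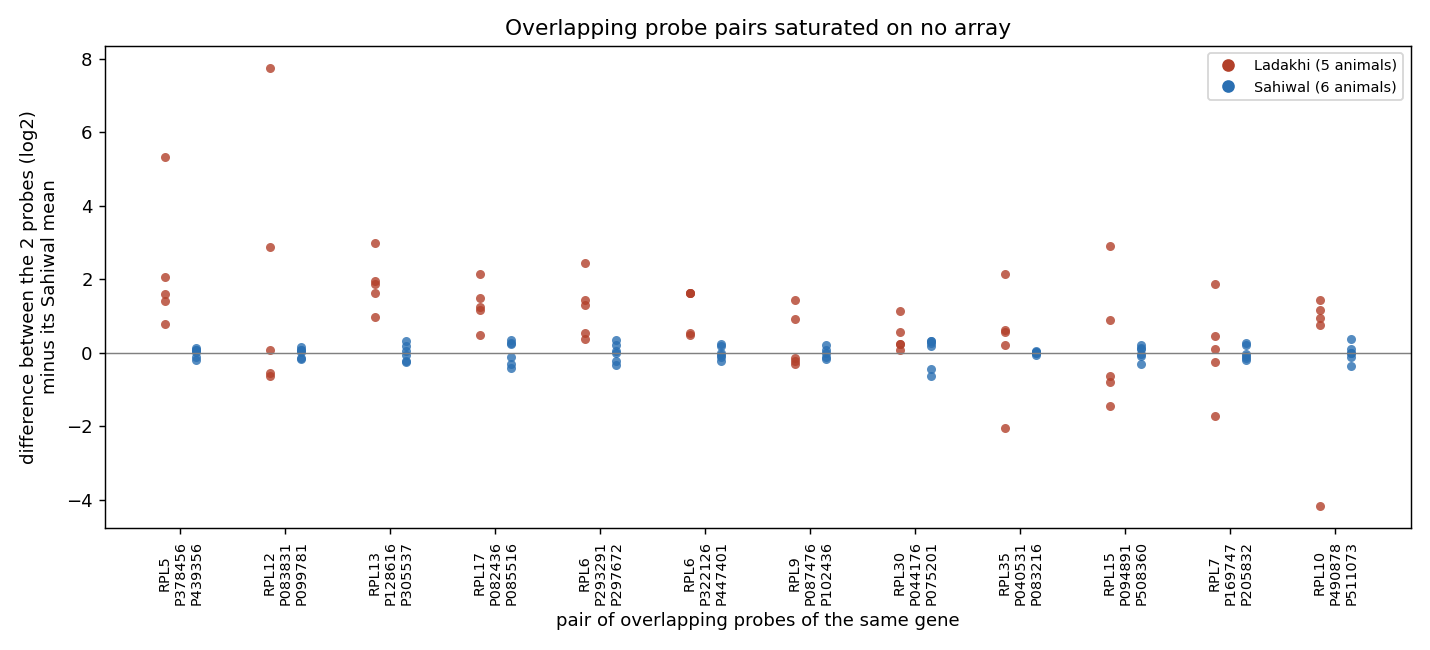
Difference between the 2 probes of each overlapping pair on each array (log2, vertical axis), signed so that the probe with the higher breed difference comes first, less its Sahiwal mean, with Ladakhi animals left and Sahiwal animals right. Ladakhi animals scatter more than Sahiwal animals in most pairs but not in RPL30, and in RPL5, RPL13, RPL17 and both RPL6 pairs all 5 lie above the 6 Sahiwal animals.

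Ladakhi arrays differed from one another more than Sahiwal arrays did at these probes. With 1 array an animal, differences between animals and measurement noise cannot be told apart in this spread. Repeat spots within an array varied by a median SD of 0.34 to 1.12 in Ladakhi, against 0.10 to 0.33 in Sahiwal. The SD between arrays had a median of 0.87 in Ladakhi and 0.37 in Sahiwal over the 57 probes, against 0.55 in Ladakhi and 0.38 in Sahiwal over all 3793. It was larger in Ladakhi for 45 of the 57 (78.9%), and for 65.7% of all. A single Ladakhi array lay at least 1 log2 unit below the next in 24 of the 57 probes (42.1%), and in 32.1% of all. In Sahiwal this happened in 0 of the 57, and in 2.56% of all. The low array was not always the same animal: it was animal 1 in 5 probes, 2 in 6, 3 in 6, 4 in 2 and 5 in 5. Over the array it was animal 1 in 210 probes, 2 in 281, 3 in 161, 4 in 438 and 5 in 129. The low array was not well above background in 7 of the 24, against 850 of 1219 over the array. Among the 1130 array probes with a Ladakhi median in the middle of the members' range (the central 29 members), the Ladakhi SD had a median of 0.54, against 0.91 for those 29 members.

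**Figure D4:**
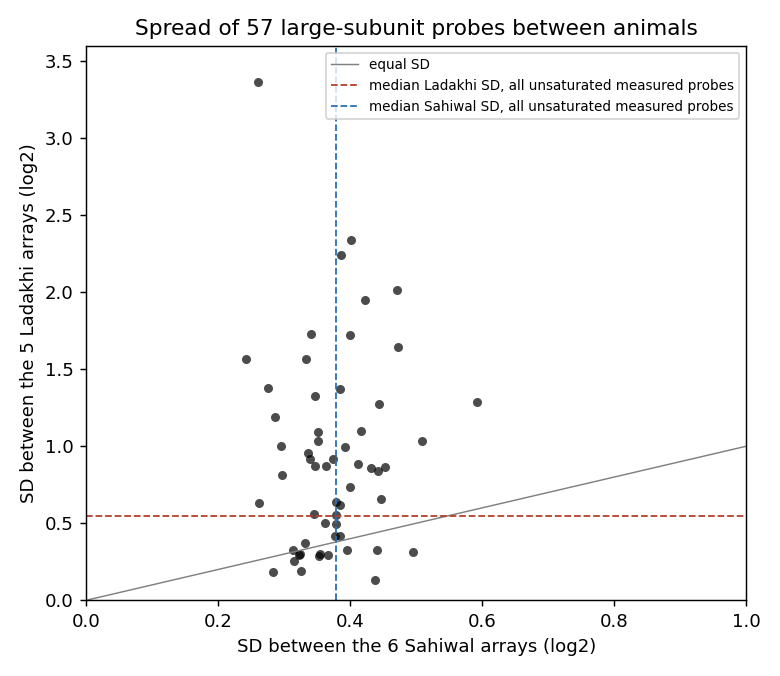
SD between the 5 Ladakhi arrays (vertical axis, log2) against that between the 6 Sahiwal arrays (horizontal axis, log2) for the 57 unsaturated large-subunit probes, with dashed lines at the medians of all 3793 unsaturated measured probes. The points reach 3.37 in Ladakhi and 0.59 in Sahiwal, and 45 of 57 lie above the line of equal SD.

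Small-subunit proteins, the partners of these in each ribosome, had 29 unsaturated measured probes, of which 10 were higher and 5 lower, with a median difference of 0.22. RPS19 was the highest of these (2.29) and RPS24 the lowest (-4.50). Other messages with the same 5′ pyrimidine run, such as the elongation factors, had 44 probes with 6 higher, 15 lower and a median of -0.026. Their probes disagreed too: PABPC1 had probes from -2.76 to 1.93, and EEF2 probes at -0.96 and 1.82, all of them called. The highest PABPC1 probe had a Sahiwal mean (-4.90) below the Ladakhi detection limit (-3.51), so it could be measured only if higher in Ladakhi. The lowest had an SD of 2.19 in Ladakhi, against 0.13 in Sahiwal. The remaining PABPC1 probes gave -1.14 and 1.21. Genes for large-subunit assembly and MDM2 surveillance had 6 such probes, of which 1, NOP16, was lower and none higher. Paralogues of the members, RPL22L1 and RPL26L1 among those sought, had 4 such probes and no call. These lists share the arrays and the scaling with the members, and no test of the difference between them was made.

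Some cell type markers moved as well. Each marker was counted at 1 probe, and other probes of a marker may differ, as those of PTPRC did. Levels below run from the lowest to the highest animal of a breed, for the mean of the measured markers. Of 3 measured monocyte markers 2 were lower, and their mean level was -0.83 to -0.11 in Ladakhi, against 0.069 to 1.26 in Sahiwal. Of 3 measured B cell markers 2 were higher, at -0.40 to 0.0049 in Ladakhi and -1.45 to -0.56 in Sahiwal. Of 4 measured T cell markers 1 was higher, at -2.02 to -0.80 in Ladakhi and -3.32 to -2.04 in Sahiwal. The 2 measured NK and cytotoxic markers were not called, at -1.86 to -0.15 in Ladakhi and -2.94 to -0.13 in Sahiwal, nor was the 1 measured marker each of neutrophils, red cells and platelets. For CD68, FCGR1A, CD79B, PAX5 and CD6, no Ladakhi array was above background. The part of cell make-up in the large-subunit differences was not tested.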

How the data were processed

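Intensity values were those deposited as scanner output: per the file headers, Feature Extraction gave a background-subtracted processed signal, with a surrogate where a spot was not above background, from version 12.0.1.1 (Agilent scanner) for Ladakhi and 9.5.3.1 (Axon scanner) for Sahiwal. The authors' deposited table of log2 values, centred per probe and on an unstated scaling (column medians 1.6 to 2.32 in Ladakhi and -0.73 to 0 in Sahiwal), was used only as an alternative, because its columns carry the numbers of other animals of that breed than the scanner files they match (r at least 0.9998). Animal numbers follow the scanner files and are unsettled.

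Controls and spots with an outlier mark were not used, and the spots of a probe were averaged. The test covered 17866 probes that 4 or more arrays of 1 breed at least had well above background, with limma 3.58.1 in R 4.3.3, both directions, on 5 Ladakhi and 6 Sahiwal arrays. Log2 differences in the overlapping pairs were compared by two-sided exact permutation over animals, adjusted over 12 pairs, a test added after the values were seen. The limma step was also run on simulated data for the tested probes with a value on every array. These data had the same SD in both breeds, so the larger Ladakhi spread was not covered. Replicates are single animals.

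Members and lists were chosen with earlier results of these data known. Probes described in full were the 6 highest and 6 lowest called (4 were higher), those of RPLP0, RPLP1, RPLP2, RPL5, RPL11, RPL13A, RPL10, RPL41, RPL3 and RPL4, and those of genes with unsaturated probes of both signs. The 3 largest bounds on no Ladakhi array were also sought, of which 1 was below 0. RPL8, RPL22, RPL24, RPL28, RPL35, RPL36A, RPL39 and the saturated or partly detected probes given beside these were chosen after their values were seen. Names were checked in the RefSeq genes of ARS-UCD2.0, and 146 of the 172 probes had an accession in it, all with the same symbol. A planned check of the shown probes against RefSeq proteins was not made, as no protein table was used here.

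Alternatives changed the scaling, background correction, filter, floor, saturation, block, weights, prior, probe averaging and membership, and left out each array. The number of arrays limits the precision.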

Additional observations from a re-analysis of the deposited data

Results flagged for a closer look

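In 74 groups of 5 or 6 animals (37 described probes in both breeds), 10 held an animal whose gap to its nearest neighbour was larger than Dixon's critical share of the range. Chance gives about 1 in 20 such groups. In 7 of them it was the lowest Ladakhi animal. RPL15 at A_73_108121 had -4.91 in Ladakhi animal 3, at a spot not well above background, with the next at -0.78. RPL5 at P439356 had -5.52 in Ladakhi animal 1, a surrogate value for a spot not above background, with the next at -1.84. RPL12 at P059161 had -3.28 in Ladakhi animal 3, with the next at 0.59. RPL34 at P087261 had -3.12 in Ladakhi animal 5, with the next at -0.73. RPL17 at P082436 had -2.64 in Ladakhi animal 2, with the next at -0.94. RPL10 at P511073 had -1.16 in Ladakhi animal 5, with the next at 0.94. RPL13 at P305537 had -1.14 in Ladakhi animal 1, with the next at 0.17. In Sahiwal, animal 6 was lowest for RPL12 at P083831 (0.29, next 0.90) and for RPL15 at P466878 (0.33, next 1.06), and animal 2 was highest for RPL3 at P449236 (-0.87, next -1.75). Their causes were not tested.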

How the results depend on the processing

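Among the 57 unsaturated probes, 15 were lower and 4 higher (median difference -0.58). Leaving out each array in turn gave 3 to 5 higher, 13 to 17 lower and medians of -0.77 to -0.44, and 1138 to 1315 called among all measured probes, against 1331 with every array. Settings that moved a count by over 1.5 times, or the median by over the SD between Ladakhi arrays (0.25), were normexp background correction (26 lower), robust regression (median -0.26, added after the data were seen) and averaging the probes of each gene (2 higher and 9 lower of 27 genes). The cause was not tested, except that fewer features enter the last. The remaining settings gave 13 to 22 lower and 3 to 6 higher, with the highest counts for slide as a random block (22 and 6), and 20 and 5 with no filter and with dim signals raised. Over all 4034 measured probes, 609 were lower and 722 higher in the main fit. These counts rose to 843 and 900 with slide as a random block, 757 and 838 with no filter, and 767 and 937 with dim signals raised. They were 945 and 999 with normexp. Averaging the probes of each gene gave 434 lower and 554 higher of all 3028 genes. Without the opposite-strand probe, also added, 3 member probes were higher and 15 lower. Quantile normalization, cyclic loess and normexp moved the median of all measured probes by 0.21, 0.45 and 0.28, which was taken off before the comparison. Animal numbers did not pair the breeds (correlations of -0.054 to 0.022), and with the replicate block 13 were lower and 3 higher (median -0.65). For the single probes described, 865 of 953 values kept their direction and side of the threshold, and 34 lost the call, mainly RPL17 P085516, RPL6 P297672 and RPLP2 P203772. Another 32 gained one, among them RPLP0 P099881 under 6 settings and in 1 fit without an array, and 22 changed sign, none of them called. RPL17 P486083 turned to 0.011 (quantile), 0.086 (slide as a random block), 0.12 (array weights) and 0.16 (robust regression). RPL15 P203267 turned to -0.15 (normexp), -0.028 (replicate block) and -0.010 (array weights). RPL9 P102436 turned to -0.039 (quantile), RPL5 P378456 to -0.17 and RPL6 P293291 to -0.21 (normexp), and RPL12 P059161 and P099781 to 0.33 and 0.30 (robust regression). Without single arrays, RPL17 P486083 ranged from -0.22 to 0.37, RPL15 P203267 from -0.028 to 0.27, P466878 from -0.42 to 0.14 and A_73_108121 from -1.15 to 0.0085, RPL9 P087476 from -0.50 to 0.067 and RPL12 P059161 from -0.65 to 0.54. The 5 overlapping pairs that differed between breeds kept their sign in 129 of 129 values under other settings, and the other 7 pairs changed sign in 18 of 178, in RPL7, RPL10, RPL15 and RPL35. Dim Ladakhi signal limits what can be measured to levels above about -3.51.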
